A study of Homo sapiens with 6 samples.

Results

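Oxidative phosphorylation genes encode the subunits of the 5 enzyme complexes of the inner mitochondrial membrane. They were taken here as all protein-coding rows for the 13 mitochondrially encoded messages (symbols starting MT-ND, MT-CO, MT-ATP or MT-CYB) and for the nuclear genes starting NDUFA, NDUFB, NDUFC, NDUFS, NDUFV, UQCR, COX4 to COX8 or ATP5, with SDHA, SDHB, SDHC and SDHD and without the NDUFAF assembly factors. This gave 101 of 30735 genes, of which 13 were mitochondrial and 88 nuclear. PANC-1, an established line from a human pancreatic ductal carcinoma, was grown in DMEM with 10% fetal bovine serum and transfected with Lipofectamine, in 3 samples with CD73 siRNA and in 3 with negative control. CD73 is an enzyme of the cell surface that makes adenosine from AMP, and NT5E is its gene. All 6 samples are of 1 cell line, the time after transfection is not in the labels of these samples, and the siRNA is given by a single catalogue number without a sequence. The labels number the samples 1 to 3 in each group without saying whether they were separate cultures, whereas the study describes separate knockdown experiments, so p-values measure the spread between these samples, which may be technical.

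Complexes I to IV pass electrons from NADH and succinate to oxygen and pump protons, and complex V (ATP synthase) uses the proton gradient to make ATP. The mitochondrial genome contributes core subunits to complexes I, III, IV and V, its messages are cut from long transcripts that cover many genes of a strand, and MT-ND6 alone among them lies on the other strand. Complex II is encoded by nuclear genes only. The nuclear subunits are transcribed from separate genes, and a number of their promoters bind the factors NRF1, GABPA (NRF2) and YY1.

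MT-ATP8 is shown because its reading frame overlaps that of MT-ATP6 on a shared messenger, and its values stood far below those of the other mitochondrial genes. The sequence is from the GRCh38 genome of GENCODE release 29, on the forward strand of the mitochondrial chromosome from 8366 to 8572. Capitals mark the 46 of its 207 bases, at positions 8527 to 8572, that also belong to MT-ATP6.
MT-ATP8: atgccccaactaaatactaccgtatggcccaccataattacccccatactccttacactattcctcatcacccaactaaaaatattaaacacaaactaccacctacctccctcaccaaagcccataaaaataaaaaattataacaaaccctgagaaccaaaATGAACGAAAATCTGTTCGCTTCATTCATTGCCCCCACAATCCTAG

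For the nuclear genes, RefSeq promoters (GRCh38.p14, 250 bases before to 50 after the start) were at hand for 69 of the 88 members. Short stretches of 3 of them are shown, for SDHD and COX5B, which are among the nuclear members with the smallest p-values, and for NDUFB4, which holds the same letters as SDHD. All lie on the forward strand, before the gene's first annotated base, at chr11:112086738-112086772 for SDHD, chr3:120596152-120596211 for NDUFB4 and chr2:97646000-97646039 for COX5B. Capitals mark the letters searched for on both strands. They are GCGCATGCG for NRF1 in SDHD and NDUFB4, where matches on both strands overlap, and CCGGAAGT for GABPA in COX5B. The promoter of SDHD also held the GABPA letters, outside the stretch shown.
SDHD: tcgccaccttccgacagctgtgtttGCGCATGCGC
NDUFB4: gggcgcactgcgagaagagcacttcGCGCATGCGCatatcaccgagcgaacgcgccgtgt
COX5B: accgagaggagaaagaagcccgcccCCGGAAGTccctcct

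The NRF1 letters were in 10 of the 69 promoters (14.5%), against 3.96% of the 9091 promoters of tested nuclear genes and 2.76% of 15843 protein-coding promoters. The GABPA letters were also in 10 (14.5%), against 9.67% and 6.19%. The letters AAGATGGCG, for YY1, were in 8 (11.6%), against 4.30% and 2.74%. At least 1 of the 3 was in 25 members (36.2%), against 16.8% of tested genes and 10.9% of protein-coding promoters, and in 34.8% of the promoters of mitochondrial ribosomal proteins. Among the other nuclear members with the smallest p-values and a promoter at hand, NDUFA8, which was higher with CD73 siRNA, held the NRF1 letters. NDUFA12, ATP5MC1, UQCR10 and NDUFS3, which were lower, held none of the 3. A match is a description of the letters in this window only.

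The unit of the deposited values is not stated. They were read as RPKM, reads scaled by exon length and by the size of the library. Library totals read from the values were 15009112 to 16836206 reads. NT5E, the targeted gene, was at 3.36, 6.85 and 8.22 RPKM in CD73 siRNA replicates 1, 2 and 3 and at 13.96, 13.87 and 17.14 RPKM in the negative controls, a log2 fold change of -1.23 ± 0.26 (SE; adjusted p = 0.303, limma, and called at an unadjusted p below 0.01). Of the ductal keratins, KRT7 was at most 0.107 RPKM in any sample and KRT19 was between 3.59 and 5.39 RPKM. KRT8 fell from a mean of 104 to 41.0 RPKM (adjusted p = 0.303) and KRT18 from 70.4 to 43.3 RPKM (adjusted p = 0.303). Among markers of other cell types, PTPRC, PECAM1, COL1A2 and INS were at most 0.0765 RPKM, and the fibroblast gene COL1A1 was at 9.17, 8.97 and 16.2 RPKM with CD73 siRNA and at 17.7, 10.5 and 19.1 RPKM in the controls. COL1A1 was lower in every pair, with a log2 fold change of -0.44 (adjusted p = 0.538 without and 0.158 with the replicate number as a term of the fit), and the part of this marker and of the keratins in the other results was not tested. In bulk samples fewer cells of a type and less RNA per cell cannot be told apart.

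Of the 101 members, 85 passed the filter (1 RPKM or more in 3 or more samples), 13 of 13 mitochondrial and 72 of 88 nuclear, among 12527 genes tested. The mitochondrial messages were by far the more abundant, with a median of 2732 RPKM against 23.5 RPKM for the tested nuclear members, 116 times as high. MT-CO1, MT-CO2, MT-ND4 and MT-ND1 led with means of 7028, 6722, 5867 and 5104 RPKM over the 6 samples. They were followed by MT-CO3 (4001), MT-ND2 (3249), MT-CYB (2732), MT-ND5 (2561), MT-ATP6 (1828), MT-ND6 (1571), MT-ND3 (1329) and MT-ND4L (1226 RPKM). Most neighbours in this order kept it in 6 of 6 samples. MT-CO1 was above MT-CO2 in 3 of 6 samples, MT-CYB above MT-ND5 in 4, MT-ATP6 above MT-ND6 and MT-ND6 above MT-ND3 in 5 each, and MT-ND3 above MT-ND4L in 4, so these neighbours were not separated.

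MT-ATP8, which encodes a small subunit of the membrane part of ATP synthase, was at 3.61, 0.614 and 2.01 RPKM with CD73 siRNA and at 2.71, 2.80 and 4.83 RPKM in the controls. These values rest on 2 to 15 reads per sample, whereas MT-ATP6 had 14758 to 26112. The 46 shared bases are 22.2% of MT-ATP8, and for MT-ND4L, which shares 7 bases with MT-ND4, the share is 2.36%. How reads in shared or antisense bases were assigned is not given in the sources used here, and its part in the level of MT-ATP8, or of MT-ND6 on the opposite strand, was not tested.

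**Figure D1:**
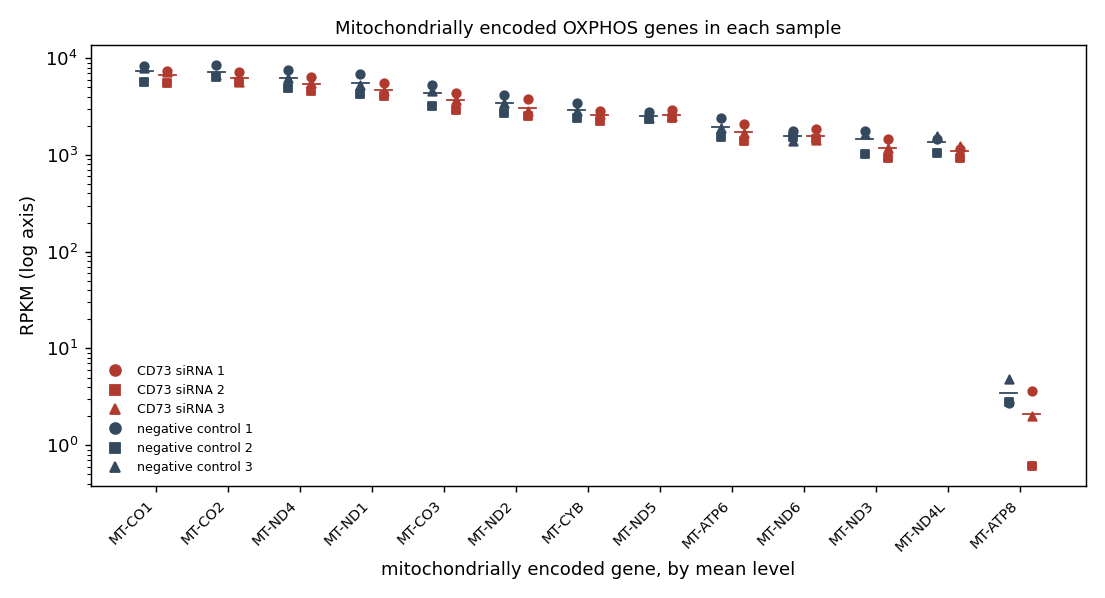
RPKM of the 13 mitochondrially encoded genes in each of the 6 samples, on a log axis, with genes ordered by mean level and the lines marking group means. Red stands for CD73 siRNA, dark blue for negative control, and the marker shape for the replicate number. MT-ATP8 stands apart near 3 RPKM, and within both colours the squares, replicate number 2, are lowest for 10 of the 13 genes.

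Taken without regard to the replicate number, no oxidative phosphorylation gene passed the threshold between the groups. At a limma p below 0.01, the threshold used in the study, 0 of 85 members were called, against 392 of all 12527 genes (3.13%), and at an adjusted p below 0.05 none was called, against 1 of all genes (0.00798%). Genes are called here by the first of these rules, and the adjusted p-values given are limma's, the second of a pair being that with the block. At an unadjusted limma p below 0.05 there were 11 of 85 members, all nuclear, against 1519 of all 12527 genes, a similar share. The median log2 fold change was -0.20 for the 13 mitochondrial genes, -0.08 for the 72 nuclear ones and 0.01 for all genes, and the value was below 0 for 12 of 13, 54 of 72 and 48.0% of genes respectively. These values are on log2(RPKM + 1), which understates the change of low genes.

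For all 13 mitochondrial messages the log2 range within each group was larger than the difference between group means. MT-CO1, the catalytic subunit of cytochrome c oxidase (complex IV), was at 7453, 5479 and 7215 RPKM in CD73 siRNA replicates 1, 2 and 3 and at 8384, 5649 and 7990 RPKM in the controls. Replicate 2 was lowest in both groups, and the groups overlapped. Across the 13 genes, both groups had their lowest sample at number 2 in 10 and their highest at number 1 in 11. The groups overlapped for all 13. An exact permutation test of 3 samples against 3 cannot give a p below 0.1, so it was not used to call genes.

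Compared within a number, the same messages were mostly lower with CD73 siRNA. In all 3 numbers 10 of the 13 mitochondrial genes were lower and 1, MT-ND5, was higher, against 24.5% of all tested genes lower and 27% higher in all 3. Of the 72 nuclear members 38 were lower and 8 higher in all 3. The numbers were taken to pair the samples, which was inferred from these data and is not in the labels. Each gene was therefore also fitted with its replicate number as a blocking term. There, 6 of 13 mitochondrial and 3 of 72 nuclear members were lower at p below 0.01, against 3.3% of all genes. 2 nuclear members and no mitochondrial one were higher, against 4.27% of all genes. None reached an adjusted p below 0.05 (smallest adjusted p with the block 0.113, limma), nor did any of the 12527 genes.

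The count rested in part on the third pair. Without number 1 the block fit called 8 of 84 members and without number 2 it called 14 of 84. Of these, 6 and 9 were among the 11. Without number 3 it called 1 of 83. Of all genes the same fits called 628 of 11994, 1635 of 11948 and 483 of 12002, so the background moved as well. The mitochondrial genes come from shared transcripts of the same libraries and are not independent of each other.

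The 6 mitochondrial genes that fell with the block were subunits of complexes I, IV and V. MT-ND3, a complex I subunit, was at 1457, 921 and 1172 RPKM with CD73 siRNA and at 1777, 1017 and 1628 RPKM in the controls. It had the lowest log2 fold change of the 6, -0.30 (SE 0.24 without and 0.07 with the block; adjusted p = 0.632 and 0.119). The difference was seen within each number and was smallest at number 2, -0.29, -0.14 and -0.47 on the log2 scale.

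MT-ND4L, the small complex I subunit read from the same messenger as MT-ND4, was at 1148, 918 and 1230 RPKM against 1451, 1047 and 1559 RPKM. Its log2 fold change was -0.29 (SE 0.17 without and 0.06 with the block; adjusted p = 0.523 and 0.113). MT-ND4 itself was at 6345, 4525 and 5488 RPKM against 7613, 4965 and 6265 RPKM, a log2 fold change of -0.20 (adjusted p = 0.689 and 0.115). They were at 81.2% and 86.8% of their control means, and in both the control of number 2 lay below the CD73 siRNA sample of another number.

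Of the complex IV core, MT-CO2, which takes electrons from cytochrome c, had the smallest p with the block. It was at 7238, 5708 and 5675 RPKM with CD73 siRNA and at 8561, 6439 and 6714 RPKM in the controls, a log2 fold change of -0.22 (SE 0.15 without and 0.04 with the block; adjusted p = 0.571 and 0.113). MT-CO3 was at 4354, 2891 and 3727 RPKM against 5222, 3195 and 4616 RPKM (-0.24; adjusted p = 0.674 and 0.113). MT-CO1 missed the threshold also with the block, with a log2 fold change of -0.12 (adjusted p = 0.822 and 0.183). MT-ATP6, which forms part of the proton channel of ATP synthase, was at 2064, 1377 and 1676 RPKM against 2391, 1544 and 1917 RPKM (-0.19; adjusted p = 0.716 and 0.119). Its 3 differences by number were close to each other, at -0.21, -0.17 and -0.19.

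Without the block, the size of these differences depended on single samples, mainly negative controls 1 and 2 and CD73 siRNA 1 and 2. With each sample left out in turn, the log2 fold change ranged from -0.55 to -0.13 for MT-ND3, -0.46 to -0.17 for MT-ND4L, -0.35 to -0.0464 for MT-ND4, -0.34 to -0.0926 for MT-CO2, -0.45 to -0.0789 for MT-CO3 and -0.35 to -0.032 for MT-ATP6. The lowest values came without negative control 2, except for MT-CO2 (without CD73 siRNA 1). The highest came without CD73 siRNA 2 for MT-ND3, MT-ND4L and MT-CO3 and without negative control 1 for the other 3.

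The other mitochondrial genes did not pass with the block. MT-ND1 lay just outside the threshold (log2 fold change -0.20, adjusted p = 0.134 with the block), followed by MT-ND2 (-0.16, adjusted p = 0.159) and MT-CYB (-0.16, adjusted p = 0.167), the cytochrome b of complex III. MT-ND5 was at 2880, 2400 and 2533 RPKM with CD73 siRNA and at 2751, 2378 and 2425 RPKM in the controls, and its log2 fold change of 0.05 was above 0 in each number. MT-ND6 was at 1832, 1462 and 1421 RPKM against 1778, 1536 and 1396 RPKM, with a log2 fold change of 0.00 ± 0.13 (SE). MT-ND5 and MT-ND6 are the complex I subunits with neighbouring genes on opposite strands, and they had the highest log2 fold changes of the 13. For MT-ATP8 the log2 fold change was -0.63 ± 0.36 (SE; adjusted p = 0.508 without and 0.237 with the block), and number 1 was higher where 2 and 3 were lower.

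Nuclear pseudogene copies of mitochondrial genes can take a share of the same reads. Of 48 rows for such copies of the protein genes, 3 reached 1 RPKM, all on chromosome 1. MTATP6P1 was at 7.30% to 8.08% of the level of MT-ATP6, MTND2P28 at 4.19% to 4.90% of that of MT-ND2 and MTCO1P12 at 0.0879% to 0.110% of that of MT-CO1. The range of each ratio overlapped between the groups.

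The share of all summed RPKM taken by the 13 genes is another summary of the same values, not a separate measure. It was 17.6%, 13.6% and 15.9% in CD73 siRNA replicates 1, 2 and 3 and 19.9%, 14.5% and 17.7% in the controls. The means were 15.7% ± 2.01 and 17.4% ± 2.71 (SD, n = 3), a difference of -1.66 percentage points that was smaller than either SD. Leaving out 1 sample moved it to -0.411 without negative control 1, -0.612 without CD73 siRNA 2, -2.62 without CD73 siRNA 1 and -3.10 without negative control 2. By number the differences were -2.25, -0.878 and -1.86 points, while the means of the numbers ran from 14.0% at number 2 to 18.7% at number 1. Counted in reads rather than RPKM the share was lower, 3.66% to 4.95% with CD73 siRNA and 3.89% to 5.67% in the controls.

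**Figure D2:**
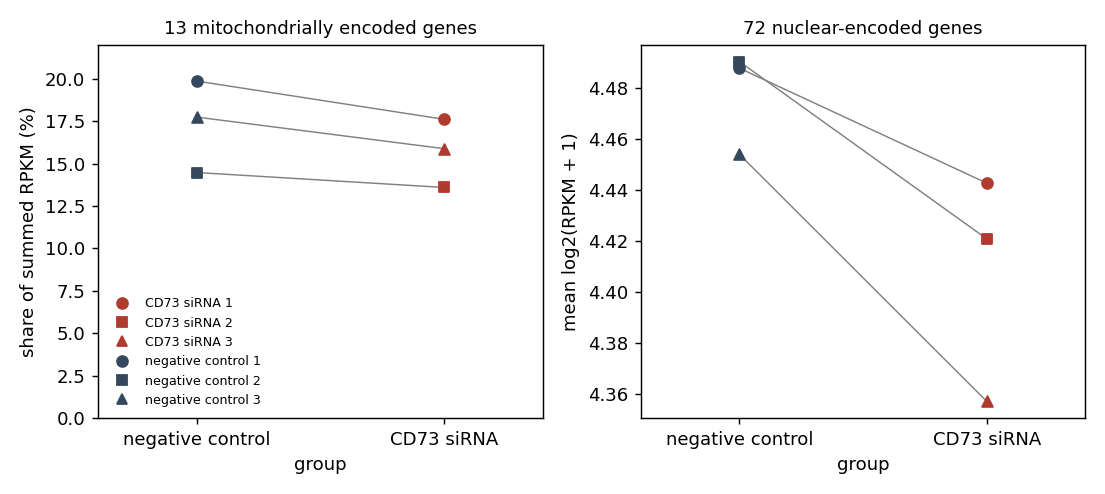
Left, share of the summed RPKM taken by the 13 mitochondrially encoded genes in each sample. Right, mean log2(RPKM + 1) over the 72 tested nuclear members, on an axis that does not start at 0. Lines join the samples of a replicate number. All 6 lines go down from negative control to CD73 siRNA, and the groups overlap on the left only.

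The tested nuclear members differed less on average, and their mean spread less between the samples of a group. Their mean log2(RPKM + 1) was 4.44, 4.42 and 4.36 with CD73 siRNA and 4.49, 4.49 and 4.45 in the controls, which left no overlap between the groups although the difference was only -0.07. By number it was -0.05, -0.07 and -0.10. Within numbers 1, 2 and 3, 47, 53 and 56 of the 72 were lower, beside 10, 12 and 11 of the 13 mitochondrial genes. Of all tested genes 48.1%, 50.3% and 47.6% were lower.

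Set against the nuclear mean, the mitochondrial mean differed by -0.13 in the CD73 siRNA group on the log2 scale (-0.11, -0.12 and -0.16 by number), within group SDs of 0.259 and 0.260. Without MT-ATP8 it was -0.10 (-0.15, -0.04 and -0.10). Without CD73 siRNA replicate 2 the group difference, taken without pairing, was 0.0076, so the sign of that unpaired value rested on that sample. Its partner, negative control 2, was the lowest control on this measure (6.13) and stayed in, and the difference was negative within each number. The nuclear mean did not follow the drop at number 2, where the mitochondrial mean was 10.5, against 11.0 and 10.8 at numbers 1 and 3, and the nuclear mean 4.46, against 4.47 and 4.41.

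Complexes were assigned by the start of the gene symbol, not by the known place of each protein. By complex, the nuclear members of complexes III and IV stood mostly below 0 and those of complex II mostly above. The median log2 fold change was -0.08 over 31 tested genes of complex I (22 below 0), 0.15 over 4 of complex II (1 below), -0.08 over 9 of complex III (9 below), -0.17 over 11 of complex IV (10 below) and -0.06 over 17 of complex V (12 below). The lowest value was -0.40, for SDHD. In 16 nuclear members the groups did not overlap with CD73 siRNA lower, against 8.07% of all tested genes, and in 5 with CD73 siRNA higher, against 10.3%. The 5 included NDUFA8, NDUFB6, ATP5PB and SDHC.

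**Figure D3:**
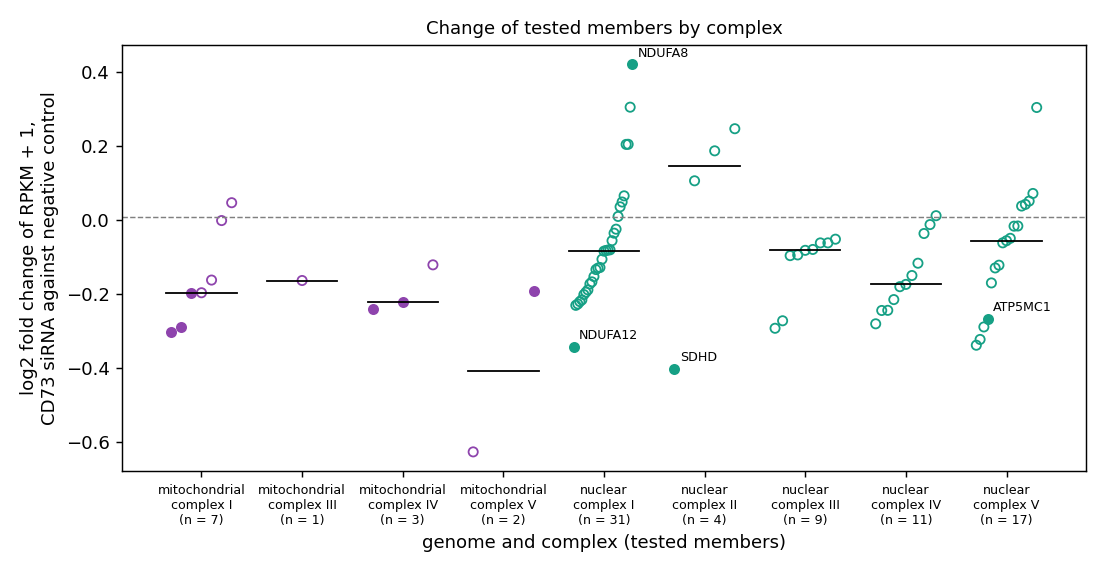
Log2 fold change of the tested members, 1 of which is not shown, CD73 siRNA against negative control, by genome and complex. Each point is a gene, the lines are medians over all tested members of a group, the dashed line is the median of all genes at 0.01, and filled points are members at p below 0.01 with the replicate block. The mitochondrial groups lie at or below -0.16 in the median, and NDUFA8 is the highest filled point shown.

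NDUFA8, an accessory subunit of complex I, was at 40.5, 40.4 and 38.8 RPKM with CD73 siRNA and at 23.6, 34.8 and 31.3 RPKM in the controls. The CD73 siRNA samples lay close together and above every control. The log2 fold change was 0.42 ± 0.14 (SE; adjusted p = 0.353 without and 0.132 with the block). It lay just inside the threshold with the block and just outside it when values were also centred on the median gene, where the log2 fold change was 0.40. NDUFA12, another accessory subunit, went the other way, with 17.9, 17.2 and 15.0 RPKM against 23.7, 20.4 and 20.2 RPKM. Its log2 fold change was -0.34 ± 0.11 (SE; adjusted p = 0.347 without and 0.116 with the block), and the groups did not overlap.

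Among the nuclear core subunits of complex I, NDUFS3 was at 11.7, 12.2 and 11.6 RPKM against 14.7, 13.5 and 13.7 RPKM, with a log2 fold change of -0.22 (adjusted p = 0.401 without and 0.179 with the block). Of the exon bases of NDUFS3, 22.4% lie also in other genes. Of the 7 nuclear core subunits, 5 were tested, and their median was -0.03. NDUFS5, the most abundant nuclear subunit of complex I, was at 179, 166 and 185 RPKM against 224, 168 and 219 RPKM. It missed the threshold in both fits (log2 fold change -0.19, adjusted p = 0.569 and 0.209), and it has 6 pseudogenes that could share its reads.

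Complex II, which oxidises succinate, split by gene. SDHD, a membrane anchor, was at 18.2, 23.2 and 17.9 RPKM with CD73 siRNA and at 26.9, 27.6 and 24.4 RPKM in the controls. Every CD73 siRNA sample was below every control, with a log2 fold change of -0.40 ± 0.12 (SE; adjusted p = 0.327 without and 0.113 with the block), and it was called with the block. SDHD has 3 pseudogenes. The other 3 genes of the complex were above 0, namely SDHB (0.25), SDHC, the second anchor (0.19), and SDHA, the flavoprotein (0.11), and none of these passed the threshold in either fit. SDHB, the most abundant of the 4, was at 51.2, 57.2 and 51.5 RPKM against 34.5, 51.7 and 50.1 RPKM, with control 1 as the low sample.

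In complex III, UQCR10, a small subunit, was at 37.4, 35.5 and 32.1 RPKM against 46.4, 39.5 and 41.5 RPKM. The groups did not overlap, and the log2 fold change was -0.27 ± 0.11 (SE; adjusted p = 0.38 without and 0.137 with the block). UQCRH, the hinge protein, had the highest level of the complex, at 101, 97.3 and 91.8 RPKM against 105, 97.4 and 108 RPKM, and a log2 fold change of -0.09. In complex IV, COX5B was at 38.7, 42.0 and 39.7 RPKM against 54.8, 48.4 and 44.1 RPKM. Its groups did not overlap (log2 fold change -0.28 ± 0.11, SE; adjusted p = 0.377 without and 0.157 with the block), and it has 7 pseudogenes. COX6B1, the most abundant of complex IV, was at 58.2, 60.0 and 67.5 RPKM against 82.3, 63.0 and 76.0 RPKM (-0.24; adjusted p = 0.468 and 0.206), and its groups overlapped.

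In complex V, 2 of the 3 genes for the same c subunit of the rotor were among the nuclear members with the smallest p-values. ATP5MC1 was at 44.8, 52.0 and 45.8 RPKM with CD73 siRNA and at 57.4, 60.9 and 53.5 RPKM in the controls. It fell with the block (log2 fold change -0.27 ± 0.10, SE; adjusted p = 0.377 without and 0.131 with it), lies just inside the threshold and has 8 pseudogenes. ATP5MC3 was at 16.4, 18.3 and 21.5 RPKM against 25.4, 21.9 and 24.2 RPKM (-0.34; adjusted p = 0.359 and 0.148), and the groups did not overlap. For ATP5MC2, the last of the 3, the log2 fold change was 0.04. ATP5MF, at 2.32 to 3.20 RPKM against 3.28 to 3.66 RPKM, was also lower in every sample (-0.32; adjusted p = 0.389 and 0.157). It rests on 86 to 133 reads per sample, has 6 pseudogenes and shares 8.57% of its exon bases with other genes. ATP5F1B, the catalytic beta subunit, was the most abundant nuclear member of all, at 398, 448 and 418 RPKM against 472, 466 and 436 RPKM, with a log2 fold change of -0.12 (adjusted p = 0.617 and 0.311).

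**Figure D4:**
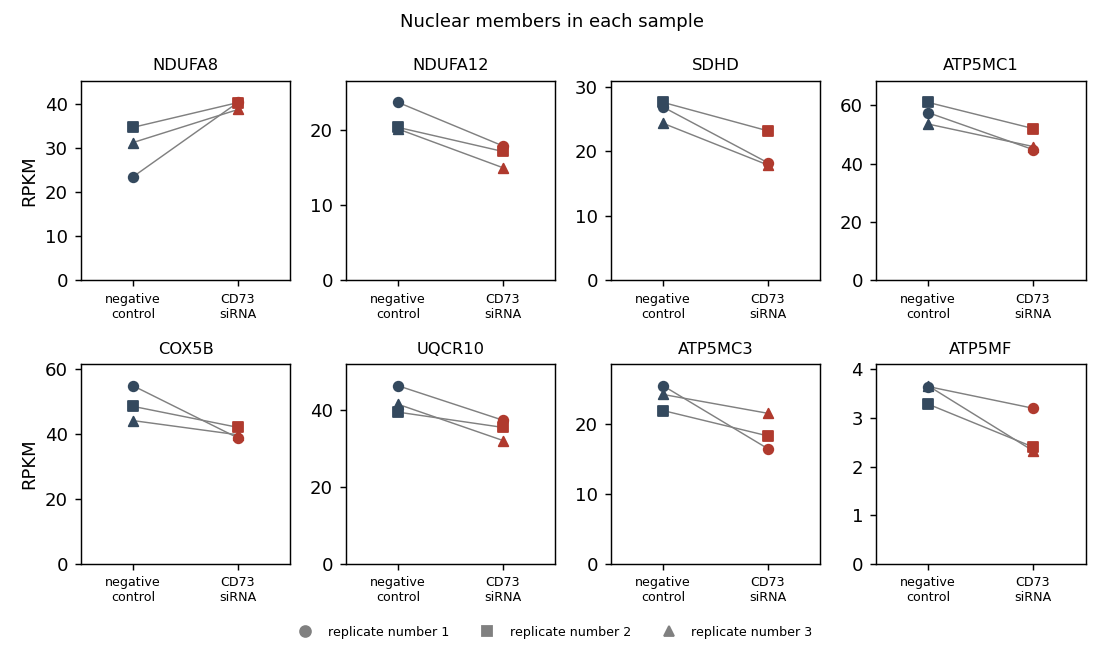
RPKM of 8 nuclear members in each sample, with axes that start at 0, lines joining the samples of a replicate number and marker shapes giving that number. NDUFA8 is higher with CD73 siRNA in every pair, and NDUFA12, SDHD, ATP5MC1, COX5B, UQCR10, ATP5MC3 and ATP5MF are lower. In NDUFA8 the control of number 1 is the lowest sample.

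Leaving out any 1 sample turned the direction of none of the nuclear genes named for the smallest p-values, but it could decide a call without the block. SDHD passed the threshold without CD73 siRNA replicate 2, ATP5MC3 without CD73 siRNA replicate 3, and NDUFA8 without negative control replicate 2, while all genes called then ranged from 110 to 791. SDHD was also called after centring on the median gene and after rescaling to the nuclear-encoded total.

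Abundance was uneven within each complex. Of the 72 tested nuclear members, 4 were at 100 RPKM or more, 49 between 10 and 100 RPKM and 19 under 10 RPKM, with at least 32 reads each in every sample. The 16 members that were not tested included 6 isoforms known from particular tissues (COX4I2, COX6B2, COX7A1, COX7B2, COX8C and NDUFA4L2), each with a mean under 1 RPKM. UQCRHL, a copy of UQCRH without introns, was tested and had a log2 fold change of -0.29 (adjusted p = 0.476), at 1.02 to 2.06 RPKM, and COX6A2 was not analysed here. Subunits that are part of the enzyme in every tissue were also among those not tested. NDUFV2, NDUFB8, NDUFA9 and ATP5ME had means of 0.718, 0.554, 0.412 and 0.212 RPKM. Of the exon bases of ATP5ME, 61.6% lie also in MYL5, and of those of NDUFB8, 48.5% lie in other genes. For NDUFV2 and NDUFA9 the share was 28.4% and 10.6%. At least 50% of exon bases lay in another gene in 2 of the 16 members not tested and in 0 of the 72 tested. The 2 were ATP5ME and ATP5MF-PTCD1, a read-through gene that shares exons with its parent genes. The part of this overlap in the low values was not tested.

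The nuclear members whose log2 values over the 6 samples were most like the mean of the mitochondrial genes were ATP5MJ (Pearson r = 0.93), NDUFB7 (0.88) and ATP5F1C (0.87), and 0.87, 0.82 and 0.94 without CD73 siRNA replicate 2 and negative control 1. The median r of the 72 was 0.36, with 50 above 0. The 6 points share libraries, scaling and treatment, so these are descriptions.

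Other mitochondrial RNAs and proteins were read from lists kept outside the rule. Their counts with the block stand beside 3.3% of all genes called lower and 4.27% called higher. MT-RNR2, the large mitochondrial rRNA, was at 2798, 2813 and 1855 RPKM with CD73 siRNA and at 3466, 2833 and 2322 RPKM in the controls, lowest at number 3 in both groups, as was MT-ND6, whereas 10 of the 13 messages were lowest at number 2 in both. Its log2 fold change was -0.21, that of the small rRNA MT-RNR1 -0.05 and that of the proline tRNA MT-TP -0.26, and with the block MT-TP was lower (adjusted p = 0.113).

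Of 17 tested genes for transcription and replication of the mitochondrial genome, none was called without the block, and 1, SSBP1, the single-strand binding protein, was lower with it (log2 fold change -0.33, adjusted p = 0.119). TFAM, which packages the genome and starts its transcription, was at 19.5, 18.6 and 18.2 RPKM against 25.4, 19.2 and 24.7 RPKM (-0.28; adjusted p = 0.421 and 0.17), and the polymerase POLRMT had a log2 fold change of -0.10. Of 22 genes for processing and stability of mitochondrial RNA none was called in either fit, and their median was -0.12. LRPPRC, which stabilises the messages, was at -0.07, and its partner SLIRP at -0.31 (adjusted p = 0.401 and 0.134).

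Of 74 tested mitochondrial ribosomal proteins, 2 were called, both lower, beside the 3.13% of all genes. MRPS26 was at 24.0, 33.0 and 33.5 RPKM against 44.1, 47.5 and 40.8 RPKM (-0.55, adjusted p = 0.303), and MRPL34 at 19.8, 21.8 and 20.9 RPKM against 34.4, 25.9 and 26.2 RPKM (-0.44, adjusted p = 0.313). With the block 5 were lower and 0 higher, beside 3.3% and 4.27% of all genes, and the median was -0.05. Of 44 assembly factors none was called without the block. With it 2 were higher, beside the 4.27% of all genes, and these were SDHAF4, for complex II (0.43, adjusted p = 0.113), and COX15, for the heme of complex IV (0.42, adjusted p = 0.113).

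Of 17 electron carriers and genes for their synthesis, PDSS1, which starts the side chain of ubiquinone, was lower (5.38, 5.07 and 4.71 RPKM against 7.97, 7.25 and 6.13 RPKM; -0.42, adjusted p = 0.307). With the block COQ8A was lower as well (-0.47, adjusted p = 0.119) and PDSS2, the partner of PDSS1, higher (0.42, adjusted p = 0.119). The median of this list was 0.12. CYCS, cytochrome c, was at 73.7, 79.4 and 65.3 RPKM against 40.7, 73.8 and 55.7 RPKM (0.39; adjusted p = 0.473 and 0.179), and CYC1, the cytochrome c1 of complex III, had a log2 fold change of -0.17. Of 13 tested nuclear regulators of respiratory genes, MYC was lower with the block (-0.42, adjusted p = 0.123), NRF1 was at -0.04, and PPARGC1A was at most 0.0175 RPKM.

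Signs of library make-up were read beside these values. Of 27 tested nuclear and non-polyadenylated RNAs, the median log2 fold change was 0.17, none was called without the block, and 2 histone genes, H2AC25 and H2BC5, were higher with it (adjusted p = 0.113 for both). The summed level of the list was 393 to 584 RPKM with CD73 siRNA and 408 to 525 RPKM in the controls, and its part in the mitochondrial differences was not tested.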

How the data were processed

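RNA-seq of 6 samples of PANC-1 cells was analysed, 3 with CD73 siRNA and 3 with negative control, grouped by the treatment given in the labels. The authors deposited 1 file for each sample, holding 30735 Ensembl gene identifiers and a scaled expression level. The unit is not stated, and the values were read as RPKM made by the authors, since dividing out exon lengths from GENCODE release 29 gave whole read numbers, within 0.02 reads, for 95.1% to 95.2% of genes under 1000 reads. The steps gave the library totals and read numbers, which were not tested. The submitters' processing notes name bcl2fastq, Bowtie2 2.2.3, HTSeq 0.6.0 and hg38, with no role or order, and the annotation and strand setting are not given in the sources used here. Of the identifiers, 132 were absent from release 29 and 30384 had a symbol in the name table. Left out were 62 rows with matching symbols that are not protein-coding, and 1 member, ATP5MF-PTCD1, is a read-through gene.

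The groups were compared on the log2(RPKM + 1) scale over genes with 1 RPKM or more in 3 or more samples, with limma 3.58.1 in R 4.3.3 (lmFit, eBayes with a trend) and Benjamini-Hochberg adjustment over the 12527 genes. Called means an unadjusted p below 0.01, and an adjusted p below 0.05 was a second rule. The scripts were tested on simulated data. Tables were handled in Python 3.11.15 with pandas 2.3.3. The labels number the samples 1 to 3 in each group. The deviations from the group means of samples with the same number correlated at 0.20, 0.48 and 0.55 over genes. The mean for different numbers was -0.21. Centring each group on its own mean ties that value to the same-number ones, so it is not a separate comparison. On the same-number values the numbers were taken to pair the samples, although the labels do not say what a number marks. The pairing was thus read from the same values that the block fit uses. Genes of a library vary together, so these correlations cannot establish it, and the p-values with the block take it as known. The fit with the replicate block is given beside the results for that reason.

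Members and lists were chosen with earlier results of these data known. The genes named were all mitochondrial members, the 10 nuclear members with the smallest p, the most abundant nuclear member of each complex, isoforms of limited tissues, NT5E, up to 3 called genes of each other list, and the 3 nuclear members most like the mitochondrial mean. The values of 1 of these genes are not reported here. Other genes were named after their values were seen. Alternatives were a pseudocount of 0.1, no filter, no trend, 2 other scalings, each sample left out and the replicate block.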

Additional observations from a re-analysis of the deposited data

How the results depend on the processing

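Counts of members called moved with the replicate block and the scaling, and no cause was tested. Of the members, 0 were called in the unblocked fit (392 of all genes), also with a pseudocount of 0.1, no filter or no trend. The replicate block called 11 (948 of all genes), and with median centring, chosen after seeing the data, 10 (937). Without the block, rescaling to the nuclear-encoded total called 1 and median centring 2. Leaving out 1 sample gave 0 to 2 members and 110 to 791 of all genes, the lowest without CD73 siRNA replicate 1 and the highest without negative control replicate 2. With the block, also chosen after seeing the data, leaving out number 1, 2 or 3 gave 8, 14 and 1 members and, of all genes, 628, 1635 and 483.

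The difference of the mitochondrial and nuclear means ranged from -0.28 without negative control replicate 2 to 0.0076 without CD73 siRNA replicate 2. Over single samples left out, MT-CO1 ranged from -0.30 to 0.0198, MT-ND5 from -0.0272 to 0.11 and MT-ND6 from -0.12 to 0.0928, and MT-ND6 was 0.0346 with the block without number 2. Of 544 values of 34 named genes under the alternatives, 468 kept direction and side of the threshold, 20 no longer passed it, 50 newly passed it and 6 turned. Depth limits MT-ATP8, with 2 to 15 reads per sample.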
